A study of Mus musculus with 30 samples.

Results

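Livers of hCAR/hPXR mice given cyproterone acetate (CPA) were compared directly with livers of hCAR/hPXR mice given 1,4-dichlorobenzene (DCB), 3 arrays against 3 of the 30 in the series. In these male mice, on a C57BL background, the mouse receptors CAR and PXR have been humanised, so both groups share the human receptors and lack the mouse ones. CPA, a steroidal antiandrogen and progestin, was given by oral gavage at 160 mg/kg, and DCB, a chlorinated benzene used in moth repellents, at 600 mg/kg. The CPA arrays are labelled 6 days and the DCB arrays 3 days, whereas the protocol gives 3 days of daily dosing for each agent and death 1 day later. Agent and labelled duration cannot be told apart in this comparison. Beside it stand the 3 corn oil arrays of the same genotype (0 mg/kg, labelled 3 days), which both treated groups share as control. The same contrast was also read in wild type mice (CPA labelled 6 days, DCB 3 days) and in mice of the CARko/PXRko genotype, which lack both receptors and are labelled 3 days for both agents.

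CAR and PXR are nuclear receptors that sense foreign chemicals in hepatocytes. On activation they switch on genes for drug oxidation, conjugation and export, among them the CYP2B, CYP2C and CYP3A families of cytochrome P450. Other sensors act beside them in the liver: AHR drives CYP1 genes, NRF2 drives genes that answer electrophiles and oxidants, and the glucocorticoid receptor drives genes of the stress and fasting response and binds some synthetic steroids.

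The values are log2 signals of 1 probe set per gene, and 12795 genes were tested. Differences are CPA minus DCB on that log2 scale unless another pair is named, so 1 unit is a doubling. They are given ± SE with 3 arrays in each group, and the SE uses the spread within all groups fitted. The p-values are from limma, adjusted over all genes tested. The design states 5 mice per group, but the labels do not say that each array is a separate mouse, so the p-values measure only the spread between these samples. Among the 9 arrays of this genotype, the third DCB array stood furthest from its group, with a mean correlation of 0.951 with the other 2, against 0.966 to 0.988 for the remaining 8 arrays. In CARko/PXRko mice DCB arrays 2 and 3 stood apart, with mean skeletal muscle marker signals of 7.64 and 11.74 against 5.26 on the first and 5.33 to 5.36 with CPA. Values of that genotype are therefore also given without those 2 arrays, where the 1 DCB array left is assumed to vary like the other groups. The mouse Nr1i3 gene, which encodes CAR, averaged 6.63 ± 0.14 (SD, n = 3) with CPA and 6.55 ± 0.28 with DCB, against 10.42 ± 0.13 and 10.09 ± 0.45 in wild type mice given the same agents. Nr1i2, which encodes PXR, averaged 4.69 ± 0.24 and 4.76 ± 0.20, against 7.78 ± 0.24 and 7.59 ± 0.31. Both genes therefore sat far below wild type in either group, as the genotype labels state, and neither was called between the agents (adjusted p = 0.852 for Nr1i3 and 0.886 for Nr1i2). Nr1i2 lay below the array median on all 3 CPA and all 3 DCB arrays, so it had no level above background to compare. The human receptor transcripts were not analysed here.

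Of the genes tested, 1191 (9.31%) were called at an adjusted p under 0.05: 671 (5.24%) were higher with CPA and 520 (4.06%) were lower, that is, higher with DCB. The median difference over all genes was -0.01. With arrays centred on their median the split turned to 432 higher and 657 lower, and with quantile normalization applied again 45.9% of the calls were higher with CPA, against 56.3% as deposited. The balance of directions therefore depends on the scaling. All 3 CPA arrays lay above all 3 DCB arrays for 1408 genes (11% of all) and below them for 1429 (11.2%), so a lack of overlap alone was common. Against corn oil, CPA changed 566 genes (4.42%; 195 up and 371 down) and DCB 978 (7.64%; 421 up and 557 down, or 64.2% up with centred arrays). The count also rested on single arrays: it was 640 without the first CPA array, 768 without the second CPA array and 1598 without the first DCB array, and 805 without the third DCB array. When the 6 arrays were fitted alone, so that the spread came from them and no other group, 65 genes were called, 62 of them among the 1191.

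**Figure D1:**
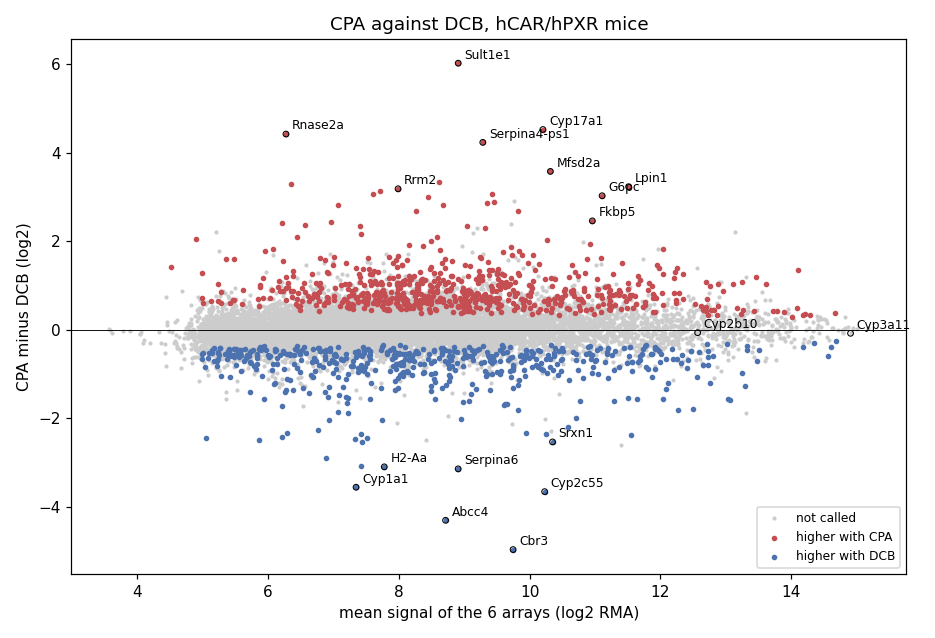
Each point is 1 of the 12795 genes. The horizontal axis is the mean log2 signal of the 6 arrays and the vertical axis the CPA minus DCB difference; red and blue points are the 671 and 520 called genes and grey points the rest. Sult1e1 lies highest at 6.03 and Cbr3 lowest at -4.97, while Cyp2b10 and Cyp3a11 lie near 0.

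Both agents raised Cyp2b10, the standard reporter of CAR activation in mouse liver, to about the same signal. It read 11.95, 12.76 and 12.90 on the CPA arrays, 12.87, 12.65 and 12.29 on the DCB arrays and 6.97, 6.01 and 6.24 on the corn oil arrays. The CPA and DCB arrays overlapped, and both groups stood clear of corn oil, by 6.13 ± 0.77, adjusted p = 2.76e-05 with CPA and by 6.20 ± 0.77, adjusted p = 3.51e-05 with DCB. Between the agents the difference was -0.07 ± 0.77 (adjusted p = 0.969), with a 95% interval from -1.65 to 1.52. That fit therefore did not exclude gaps within the interval, but its SE uses the spread within all groups of the series. Fitted on the CPA and DCB arrays of this genotype alone, the SE was 0.28 and the gap not called (adjusted p = 0.926). Cyp3a11, a main PXR target, read 14.84, 14.87 and 14.88 on the CPA arrays, 14.93, 14.92 and 15 on the DCB arrays and 14.77, 14.80 and 14.82 on the corn oil arrays. These values lie close to the highest signal of any probe set on any array (15.34), and the difference of -0.08 ± 0.09 was not called (adjusted p = 0.609). None of the 4 CYP3A enzymes tested was called, with differences from -0.20 to 0.10.

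The other drug-metabolizing CYP genes were less alike. Cyp2c55, a CAR- and PXR-inducible epoxygenase, read 8.36, 8.28 and 8.55 on the CPA arrays, 12.57, 12.73 and 10.88 on the DCB arrays and 8.73, 9.24 and 8.61 on the corn oil arrays. DCB alone raised it: the 3 DCB arrays lay above all CPA and corn oil arrays, and the CPA minus DCB difference was -3.66 ± 0.51, adjusted p = 9.3e-05, a 12.7-fold gap. Cyp2c68 went the other way (13.45, 13.87 and 14.03 with CPA against 12.54, 12.82 and 12.74 with DCB; 1.08 ± 0.30, adjusted p = 0.0235), a call lost without CPA array 2 or 3 or DCB array 1 or 3. Those were the only 2 of 11 CYP2B and CYP2C genes called, and the median of the 11 was -0.14. Over all genes 5.24% were higher with CPA and 4.06% lower. Of 13 other CAR- and PXR-responsive genes, 3 were lower with CPA and none higher, with a median of -0.04. They were the exporter Abcc4, the first enzyme of heme synthesis Alas1, and the retinal dehydrogenase Aldh1a1 (-0.59, adjusted p = 0.00833). Abcc4, which pumps conjugates out of the hepatocyte into blood, read 6.52, 7.14 and 6.01 on the CPA arrays, 10.98, 12.25 and 9.38 on the DCB arrays and 7.24, 6.42 and 6.09 on the corn oil arrays. Its CPA and corn oil arrays overlapped and all DCB arrays were higher, with a difference of -4.31 ± 0.59, adjusted p = 7.96e-05. Alas1 read 12.37, 12.82 and 12.78 with CPA and 13.91, 13.94 and 13.97 with DCB (-1.28 ± 0.39, adjusted p = 0.0409), and its call was lost when any 1 of the 6 arrays was left out.

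**Figure D2:**
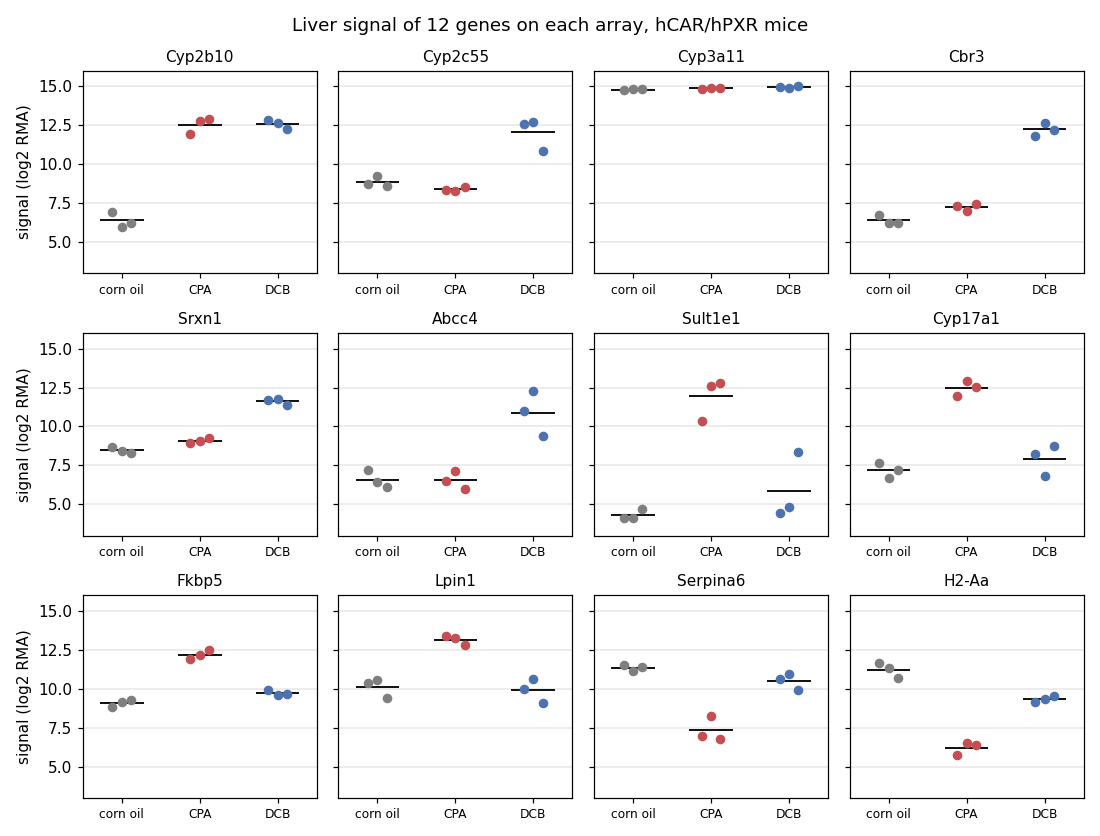
Log2 signal of 12 genes on each of the 9 arrays of hCAR/hPXR mice, 1 panel per gene. Points are arrays, grouped as corn oil, CPA and DCB, and the bar is the mean of 3. Cyp2b10 is high with both agents; Cyp2c55, Cbr3, Srxn1 and Abcc4 are high with DCB alone; Sult1e1, Cyp17a1, Fkbp5 and Lpin1 are high with CPA; Serpina6 and H2-Aa are lowest with CPA.

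NRF2 targets, the genes for antioxidant and electrophile defence, were higher with DCB. Of 20 tested, 13 were higher with DCB and none higher with CPA, against 4.06% and 5.24% of all genes, and their median difference was -1.06. Against corn oil, 13 rose with DCB (median 1.25; 3.29% of all genes rose), while 2 rose and 1 fell with CPA (median 0.06). Cbr3, a carbonyl reductase, showed the largest gap toward DCB of any gene. It read 7.30, 7.03 and 7.44 on the CPA arrays, 11.81, 12.67 and 12.22 on the DCB arrays and 6.78, 6.23 and 6.22 on the corn oil arrays. The CPA and DCB arrays did not overlap, and the difference of -4.97 ± 0.38 (adjusted p = 3.08e-08) is 31.4-fold. Srxn1, sulfiredoxin, which repairs over-oxidized peroxiredoxins, read 8.93, 9.07 and 9.24 on the CPA arrays, 11.70, 11.79 and 11.37 on the DCB arrays and 8.68, 8.45 and 8.32 on the corn oil arrays, a difference of -2.54 ± 0.25, adjusted p = 1.09e-06. Ugdh makes the UDP-glucuronic acid used in glucuronidation. It read 11.92, 12.74 and 12.06 with CPA, 13.89, 13.83 and 13.73 with DCB and 12.30, 12.28 and 12.38 with corn oil (-1.58 ± 0.18, adjusted p = 9.62e-06). In both genes every DCB array lay above every CPA and corn oil array. Nqo1, the quinone reductase, rose with both agents: it read 7.52, 8.32 and 7.98 on the CPA arrays, 9.37, 9.71 and 10.82 on the DCB arrays and 6.93, 6.10 and 6.71 on the corn oil arrays. It rose by 1.36 ± 0.36, adjusted p = 0.0273 with CPA and by 3.39 ± 0.36, adjusted p = 3.31e-06 with DCB, and the gap between them was -2.03 ± 0.36, adjusted p = 0.000886. Fbxo2, an F-box protein on this list, read 4.48, 4.80 and 4.58 with CPA, below the array median on all 3 arrays, and 6.76, 6.91 and 7.65 with DCB (-2.49 ± 0.29, adjusted p = 1.1e-05), so its lower level is close to background.

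Among the other NRF2 targets called were both subunits of glutamate-cysteine ligase, the rate-limiting enzyme of glutathione synthesis (Gclc -1.80 and Gclm -0.67), glutathione reductase (Gsr -1.14), thioredoxin reductase (Txnrd1 -0.67) and the heme transporter Slc48a1 (-1.70 ± 0.27, adjusted p = 0.000298). Heme oxygenase 1 (Hmox1 -1.30, adjusted p = 0.133) and the cystine transporter Slc7a11 (-1.41, adjusted p = 0.133) were not called. The list count was 9 to 14 with 1 array left out, and 4 with the 6 arrays fitted alone. In that last fit the median was the same, -1.06.

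Promoters of 4 genes with large gaps toward DCB are printed because they hold the letters TGACNNNGC, the core of the antioxidant response element to which NRF2 binds. Each runs from 250 bases before to 50 bases after a RefSeq transcript start on GRCm38.p6, 5′ to 3′ along the gene, with each match on either strand in capitals.
Srxn1 promoter, chr2:152105274-152105573, plus strand: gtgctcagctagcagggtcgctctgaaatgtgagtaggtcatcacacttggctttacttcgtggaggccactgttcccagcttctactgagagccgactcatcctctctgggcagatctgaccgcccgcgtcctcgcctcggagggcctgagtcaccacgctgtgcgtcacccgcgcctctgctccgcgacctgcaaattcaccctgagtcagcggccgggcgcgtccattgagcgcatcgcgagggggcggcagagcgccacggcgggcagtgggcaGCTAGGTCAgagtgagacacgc
Ugdh promoter, chr5:65435793-65436092, minus strand: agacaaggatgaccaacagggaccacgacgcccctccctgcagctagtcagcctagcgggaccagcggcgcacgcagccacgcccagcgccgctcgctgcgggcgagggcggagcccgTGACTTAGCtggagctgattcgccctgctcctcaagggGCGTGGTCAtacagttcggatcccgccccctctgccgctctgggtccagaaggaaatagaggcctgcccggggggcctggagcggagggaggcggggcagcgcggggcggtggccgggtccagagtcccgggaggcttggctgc
Amn promoter, chr12:111270846-111271145, plus strand: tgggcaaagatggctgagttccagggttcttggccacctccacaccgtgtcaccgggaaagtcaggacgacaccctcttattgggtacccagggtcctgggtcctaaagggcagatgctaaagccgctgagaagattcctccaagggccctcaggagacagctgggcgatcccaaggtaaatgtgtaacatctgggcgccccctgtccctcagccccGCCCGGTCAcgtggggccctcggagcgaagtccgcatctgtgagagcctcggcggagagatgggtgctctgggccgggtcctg
Abcc4 promoter, chr14:118706170-118706469, minus strand: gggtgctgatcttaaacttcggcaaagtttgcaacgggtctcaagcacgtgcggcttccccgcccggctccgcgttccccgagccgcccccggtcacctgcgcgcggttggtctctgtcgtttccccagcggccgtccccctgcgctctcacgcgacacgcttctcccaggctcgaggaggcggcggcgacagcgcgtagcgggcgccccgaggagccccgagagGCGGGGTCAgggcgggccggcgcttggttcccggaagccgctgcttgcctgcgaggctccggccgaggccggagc
Ugdh held 2 matches, 1 on each strand, and the other promoters printed held 1. Another Abcc4 promoter, at chr14:118676882-118677181, also held 1 match and is not printed. Of the 16 NRF2 targets with a promoter in the table, 6 held the motif (37.5%), against 14% of the 27025 genes in it. The 6 were Srxn1, Ugdh, Gclm, Txnrd1, Vat1 and Mafg, of which Vat1 and Mafg were not called. Among the 15 genes with the largest gaps toward DCB, chosen by their measured values, 3 of 13 with a promoter held it, and among the 15 with the largest gaps toward CPA, 3 of 11 (G6pc, Pklr and Rrm2). The AHR core GCGTG was in 62.5% of the NRF2 targets and 35.2% of all genes. It overlaps the reverse strand match in Ugdh. The full glucocorticoid receptor palindrome was in 3 genes of the whole table. Sgk1 was 1 of them and the only 1 among 17 glucocorticoid-responsive genes with a promoter. These are matches of letters, not sites shown to be bound.

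Of 20 glutathione transferases, 7 were lower with CPA and 1 higher, with a median of -0.31. Over all genes 4.06% were lower and 5.24% higher. Mgst3, a microsomal transferase, read 8.89, 9.41 and 8.89 with CPA against 11.39, 11.89 and 10.99 with DCB (-2.36 ± 0.42, adjusted p = 0.00107). Another probe set of Mgst3 differed by -0.66. Gsta4, which conjugates products of lipid peroxidation, differed by -1.58 ± 0.30, adjusted p = 0.00201, and Gstm4 by -1.62 ± 0.32, adjusted p = 0.00223. The 1 in the other direction was Gstk1, a mitochondrial and peroxisomal enzyme (0.79 ± 0.16, adjusted p = 0.00244; 11.90, 11.90 and 11.99 against 11.20, 11.25 and 10.95). Of 14 heme genes, 4 were lower with CPA: Alas1 and Slc48a1 above, biliverdin reductase B (Blvrb, -1.82 ± 0.23, adjusted p = 2.34e-05) and Alad, the second enzyme of heme synthesis (-1.09 ± 0.16, adjusted p = 0.000156). Another probe set of Alad differed by -0.20, and with probe sets averaged the difference was -0.65 and not called. For Alad the CPA arrays (10.66, 10.59 and 10.69) lay below corn oil (11.61, 11.39 and 11.35) while DCB was not called against corn oil. Akr1c19, an aldo-keto reductase, also stood higher with DCB (-1.57 ± 0.24, adjusted p = 0.000289).

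Genes of the proteasome, the complex that degrades tagged proteins, were higher with DCB by small steps. All 32 subunits tested had negative differences in the deposited values, from -0.80 to -0.05, and 19 were called, with a median of -0.48. Over all genes 4.06% were lower with CPA. Psmb4, a core subunit, read 12.25, 12.42 and 12.29 on the CPA arrays, 13.13, 13.08 and 13.15 on the DCB arrays and 12.22, 12.16 and 12.30 on the corn oil arrays (-0.80 ± 0.12, adjusted p = 0.000163). Psmd4, a ubiquitin receptor of the cap, differed by -0.73 ± 0.12, Psmb5, a catalytic subunit, by -0.75 ± 0.12, and Psmd11 by -0.55 ± 0.10. In each of the 4 the CPA and DCB arrays did not overlap. Against corn oil, 25 of the 32 rose with DCB and none with CPA (3.29% and 1.52% of all genes rose). The called number fell to 9 without the first CPA array, to 11 without the second CPA array or the third DCB array, and to 0 with the 6 arrays fitted alone, where the median was still -0.48. Heat shock chaperones were called once in 15, for the small heat shock protein Hspb1. It read 9.27, 9.98 and 9.19 with CPA and 12.59, 12.40 and 10.06 with DCB (-2.20 ± 0.48, adjusted p = 0.00552). Of 24 ER stress and ATF4 genes, 3 were lower with CPA, including the serine synthesis enzyme Psat1 (4.59, 4.62 and 5.76 against 7.28, 7.53 and 7.45; -2.43 ± 0.50, adjusted p = 0.00367) and the transcription factor Atf4 (-0.70 ± 0.15, adjusted p = 0.00583). Another probe set of Atf4 differed by -0.24, and its call was lost with array weights and with probe sets averaged, where the difference was -0.29.

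Genes of the AHR list did not move as a block. Of 5 tested, 2 were lower and 1 higher with CPA (4.06% and 5.24% of all genes), with a median of 0.40. The 2 lower with CPA were Cyp1a1 and Cyp1a2. Cyp1a1, the standard AHR reporter, read 5.53, 5.46 and 5.70 on the CPA arrays, 8.71, 6.99 and 11.68 on the DCB arrays and 5.26, 5.73 and 5.76 on the corn oil arrays. The CPA arrays lay within the corn oil range, whereas the DCB arrays were all higher but spread from 6.99 to 11.68, and the difference was -3.56 ± 0.74, adjusted p = 0.00377. Cyp1a2 read 12.26, 12.21 and 12.35 with CPA and 13.78, 13.93 and 13.86 with DCB (-1.58 ± 0.38, adjusted p = 0.0106). The 1 gene of the list higher with CPA was Lpin1, which is also on the list of lipid synthesis and is described below.

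**Figure D3:**
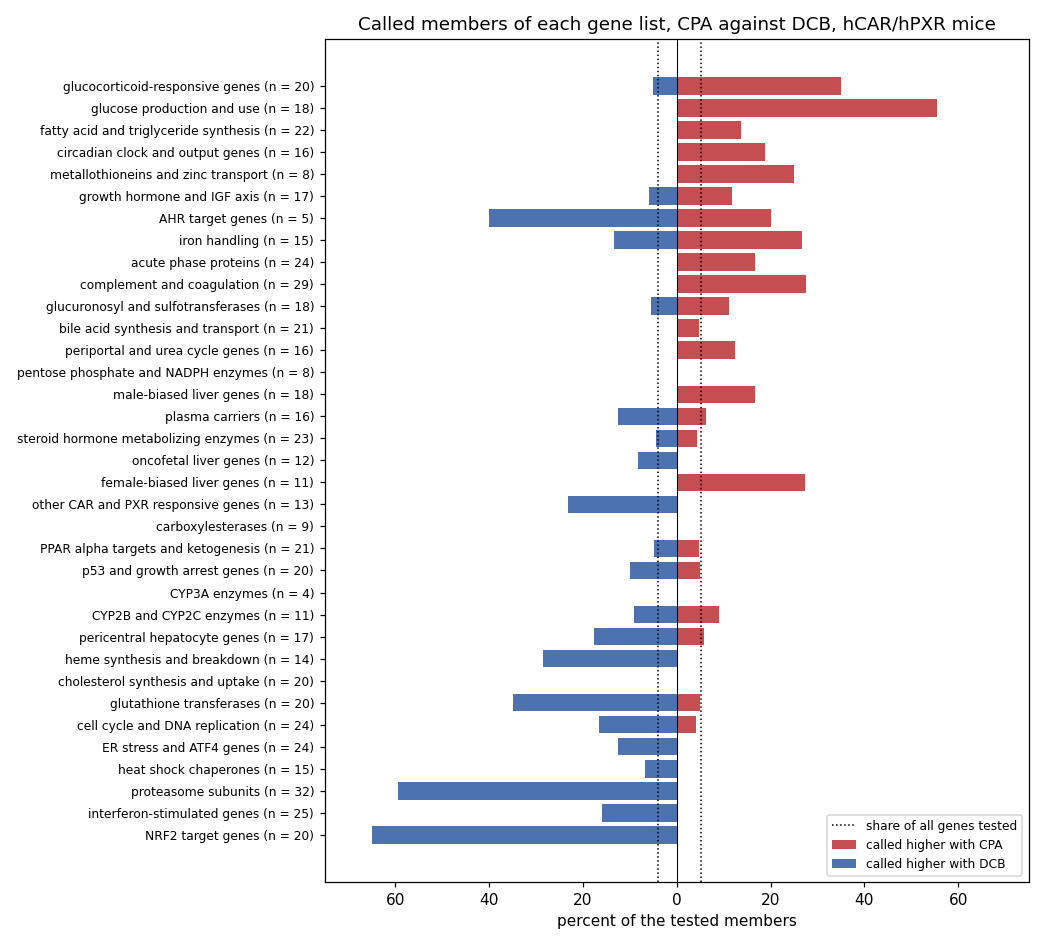
Share of the tested members of each gene list called higher with CPA (red, to the right) or higher with DCB (blue, to the left), in percent. Lists are ordered by their median difference, and the lists of cell type markers and MHC class II genes are not shown. Dotted lines mark the shares over all genes, 5.24% and 4.06%. NRF2 targets and proteasome subunits extend far to the left, and glucose genes far to the right.

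On the CPA side the 2 largest gaps belonged to genes of steroid conjugation and synthesis. Sult1e1, estrogen sulfotransferase, which inactivates estrogens, had the largest gap of all. It read 10.33, 12.62 and 12.82 on the CPA arrays, 4.48, 4.82 and 8.38 on the DCB arrays and 4.13, 4.14 and 4.72 on the corn oil arrays. Every CPA array lay above every DCB array, although the third DCB array stood well above the other 2, and the difference was 6.03 ± 0.69, adjusted p = 1.07e-05. The gene lay below the array median on 2 of the 3 DCB arrays, and the difference was 5.32 to 7.27 with 1 array left out. Cyp17a1, the 17-alpha-hydroxylase of steroid synthesis, read 11.95, 12.92 and 12.52 on the CPA arrays, 8.25, 6.82 and 8.74 on the DCB arrays and 7.69, 6.70 and 7.18 on the corn oil arrays. CPA raised it over corn oil by 5.28 ± 0.69, adjusted p = 3.97e-05; DCB was not called (0.75 ± 0.69, adjusted p = 0.555), and the gap was 4.53 ± 0.69, adjusted p = 0.000227. Sult1e1 was 1 of 2 genes called higher with CPA among 18 glucuronosyl- and sulfotransferases, and Cyp17a1 the only 1 called higher among 23 steroid-metabolizing genes. The other transferase was Sult3a1 (6.06, 5.07 and 6.63 against 3.60, 3.62 and 4.35; 2.06 ± 0.62, adjusted p = 0.0387), which lay below the array median on all DCB arrays and lost its call without any array but the second CPA array. The glucuronosyltransferase Ugt2b35 was lower with CPA (-0.97 ± 0.20, adjusted p = 0.0041). Fmo2, a flavin monooxygenase, read 10.94, 11.55 and 10.39 with CPA, 8.18, 7.15 and 8.32 with DCB and 7.38, 7.36 and 7.08 with corn oil (3.08 ± 0.45, adjusted p = 0.000139). Cyp17a1, Fmo2 and Sult3a1 are also the 3 of 11 female-biased liver genes called higher with CPA, and none was lower. The median of those 11 was -0.01. Beside each of these list counts stand 5.24% of all genes higher and 4.06% lower.

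Glucocorticoid-responsive genes were higher with CPA. Of 20 tested, 7 were called higher and 1 lower, against 5.24% and 4.06% of all genes. Their median was 1.25 against -0.01 over all genes. Against corn oil 7 rose with CPA and none fell (1.52% and 2.9% of all genes). With DCB 2 rose and 1 fell (3.29% and 4.35%). Fkbp5, a co-chaperone of the glucocorticoid receptor and a standard reporter of it, read 11.92, 12.19 and 12.46 on the CPA arrays, 9.91, 9.62 and 9.65 on the DCB arrays and 8.82, 9.13 and 9.26 on the corn oil arrays. The 3 groups did not overlap, with CPA highest, and the gap was 2.46 ± 0.29, adjusted p = 1.39e-05. Zbtb16, a zinc finger factor, read 9.73, 10 and 9.10 with CPA, 7.22, 6.97 and 6.57 with DCB and 6.80, 7.18 and 6.87 with corn oil (2.69 ± 0.34, adjusted p = 2.51e-05). Dusp1, a phosphatase that dampens MAP kinases, read 11.74, 9.96 and 10.63 on the CPA arrays, 8.18, 7.70 and 7.84 on the DCB arrays and 8.70, 9.28 and 8.97 on the corn oil arrays (2.87 ± 0.41, adjusted p = 0.000138), so its DCB arrays lay below corn oil as well as below CPA. Ddit4, an inhibitor of mTOR signalling, differed by 1.42 ± 0.25, adjusted p = 0.000952 and rose over corn oil with both agents. Tsc22d3 (1.45) and Klf9 (1.47), both well-known targets of the receptor, were also called. Angptl4, an inhibitor of lipoprotein lipase, was called at 2.02 ± 0.57, adjusted p = 0.0282 and lost its call without CPA array 1 or 3 or DCB array 1 or 2. The 1 lower gene was Gadd45a (-1.56 ± 0.34, adjusted p = 0.00492). Tat, tyrosine aminotransferase, a classic hepatic target, was not called (13.26, 13.50 and 12.72 with CPA and 12.99, 12.19 and 12.52 with DCB; 0.59 ± 0.37, adjusted p = 0.328), and neither was metallothionein 2 (Mt2, 1.12 ± 0.79, adjusted p = 0.389). With the 6 arrays fitted alone 3 genes of the list were called higher.

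The hormone carriers Serpina6 and Serpina7 were lower with CPA. Serpina6, corticosteroid-binding globulin, read 6.98, 8.24 and 6.77 on the CPA arrays, 10.59, 10.92 and 9.93 on the DCB arrays and 11.49, 11.12 and 11.37 on the corn oil arrays. It fell by 4.00 from corn oil with CPA (adjusted p = 2.39e-06), while DCB was not called against corn oil, and the gap was -3.15 ± 0.42, adjusted p = 5.55e-05. Serpina7, thyroxine-binding globulin, read 6.44, 4.98 and 7.05 with CPA and 9.11, 9.46 and 7.56 with DCB (-2.55 ± 0.67, adjusted p = 0.0184), a call lost without the second CPA array or the second DCB array. These were the only 2 of 16 carriers called lower (4.06% of all genes were lower and 5.24% higher). Apolipoprotein C3 was called higher (0.38 ± 0.09, adjusted p = 0.00898), and albumin and transthyretin were not called.

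Genes of glucose handling stood higher with CPA. Of 18 tested, 10 were called higher and none lower, against 5.24% and 4.06% of all genes, with a median of 1.06. Against corn oil 5 rose with CPA (1.52% of all genes), and 3 fell with DCB (4.35%). G6pc, glucose-6-phosphatase, the last step of glucose release, read 13.22, 11.93 and 12.72 on the CPA arrays, 8.23, 10.67 and 9.87 on the DCB arrays and 11.47, 12.34 and 11.83 on the corn oil arrays. Its CPA and DCB arrays did not overlap, the first DCB array was lowest, and the gap was 3.03 ± 0.57, adjusted p = 0.00174. Its DCB minus corn oil difference was -2.29 ± 0.57, adjusted p = 0.0169, while CPA was not called. Pklr, liver pyruvate kinase, which works in the opposite direction in glycolysis, read 11.75, 9.66 and 11.32 on the CPA arrays, 8.17, 8.74 and 7.14 on the DCB arrays and 8.56, 9.18 and 8.88 on the corn oil arrays (2.90 ± 0.59, adjusted p = 0.00307). The glucokinase regulator Gckr differed by 1.5 ± 0.21, adjusted p = 0.000117 and the transcription factor Foxo1 by 1.17 ± 0.23, adjusted p = 0.00259. The 6 others ranged from 0.36 for Fbp1 to 1.09 for Khk. Genes of both glucose production and glucose use were thus among those higher with CPA. The list count was 7 to 10 with 1 array left out and 0 with the 6 arrays fitted alone, where the median was still 1.06.

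Lipid genes gave fewer calls than glucose genes. Of 22 fatty acid and triglyceride synthesis genes 3 were called (13.6%), all higher with CPA, and the median was 0.96. Over all genes 5.24% were higher with CPA and 4.06% lower, and the lists below are to be read beside those shares. Lpin1, lipin 1, which makes diacylglycerol and acts as a coactivator in fasting, read 13.36, 13.22 and 12.81 on the CPA arrays, 9.98, 10.61 and 9.10 on the DCB arrays and 10.36, 10.56 and 9.42 on the corn oil arrays. The CPA arrays stood above every other array, and the gap was 3.23 ± 0.37, adjusted p = 1.07e-05. Scd1, stearoyl-CoA desaturase (14.96, 14.66 and 14.69 against 13.93, 13.80 and 12.55; 1.34 ± 0.42, adjusted p = 0.0479), and Dgat2, which makes triglyceride (0.76 ± 0.22, adjusted p = 0.0304), were less firm. Scd1 lost its call without any 1 of the CPA arrays, without the third DCB array and under 6 other settings, among them centred arrays and no filter, and Dgat2 without the first or second CPA array or the third DCB array. Without the third DCB array the median of the list was 0.28 in place of 0.96. Mfsd2a, a transporter of lysophospholipids that rises in fasting, read 12.51, 11.89 and 11.92 on the CPA arrays, 8.92, 7.80 and 8.87 on the DCB arrays and 9.91, 9.16 and 7.52 on the corn oil arrays. It lay above both other groups on all 3 CPA arrays (3.58 ± 0.72, adjusted p = 0.00273). Bdh1, which interconverts ketone bodies, was lower with CPA (8.88, 8.34 and 9.49 against 10.98, 11.17 and 10.04; -1.83 ± 0.26, adjusted p = 0.000117). It and Angptl4 were the only 2 of 21 PPAR alpha and ketogenesis genes called. None of 20 cholesterol synthesis genes, 8 pentose phosphate genes or 9 carboxylesterases was called. Of 21 bile acid genes only the bile salt export pump Abcb11 was called (1.27 ± 0.38, adjusted p = 0.0392; lost without CPA array 1 or 2 and without DCB array 3, where it was 0.55), and Cyp7a1, the rate-limiting enzyme of bile acid synthesis, was not (-0.36 ± 0.67, adjusted p = 0.78).

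Some secreted plasma proteins were higher with CPA. Of 29 complement and coagulation genes 8 were called, all higher (5.24% of all genes were higher and 4.06% lower), with a median of 0.32. Against corn oil 16 of them fell with DCB and 5 with CPA (medians -0.51 and -0.20; 4.35% and 2.9% of all genes fell), and none rose. Complement C6 read 10.85, 10.43 and 10.90 on the CPA arrays, 9.25, 9.12 and 9.29 on the DCB arrays and 10.66, 11.49 and 10.87 on the corn oil arrays (1.51 ± 0.35, adjusted p = 0.00792). Coagulation factor IX (F9) differed by 1.05 ± 0.18, adjusted p = 0.000884, complement C8g by 0.88 ± 0.17, adjusted p = 0.0021, factor XII (F12) by 0.71 ± 0.15, adjusted p = 0.00522 and prothrombin (F2) by 0.43 ± 0.10, adjusted p = 0.00676. Without the second CPA array 5 of the list were called. Of 24 acute phase genes 4 were called, all higher with CPA. They included the endotoxin-binding protein Lbp (1.36 ± 0.27, adjusted p = 0.00245) and the interleukin 1 receptor Il1r1 (1.44 ± 0.33, adjusted p = 0.00689), and 2 of the list were called without the second CPA array. Iron genes split: the transferrin receptor Tfrc was higher with DCB (9.46, 10.03 and 9.63 against 12.05, 11.72 and 11.37; -2.01 ± 0.45, adjusted p = 0.00684), whereas ceruloplasmin (Cp) was higher with CPA (0.39 ± 0.10, adjusted p = 0.0166). Cp lost its call without CPA array 2 or DCB array 3. Of 15 iron genes, 4 were higher with CPA and 2 lower, but without the second CPA array or the third DCB array none was called higher, and without the first CPA array 1 was.

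Genes of growth hormone action, sex bias, zonation and the clock gave 2 to 4 calls per list between the agents (5.24% of all genes were higher and 4.06% lower with CPA). Igfbp2, a binding protein for insulin-like growth factors, read 10.21, 11.21 and 9.67 on the CPA arrays, 12.83, 12.35 and 13.08 on the DCB arrays and 13.06, 12.75 and 13.19 on the corn oil arrays. CPA lowered it and DCB did not, and the gap was -2.39 ± 0.36, adjusted p = 0.000201. Igfbp3 (1.47 ± 0.43, adjusted p = 0.0349) and Stat5b, the main transducer of growth hormone in liver (0.72 ± 0.14, adjusted p = 0.00273), were higher with CPA. Another probe set of Stat5b differed by -0.51, so the direction of that gene is uncertain. The median of the 17 genes of this axis was 0.40. Against corn oil 5 of the 17 fell with DCB and 1 with CPA (medians -0.76 and -0.33), beside 4.35% and 2.9% of all genes. Igfbp3 lost its call without CPA array 1 or 2 or DCB array 1 or 3. Of 18 male-biased genes 3 were higher with CPA: C6, the growth factor receptor Egfr (1.61 ± 0.50, adjusted p = 0.0427) and Cyp2f2 (14.20, 14.13 and 14.06 against 13.42, 13.30 and 12.57; 1.03 ± 0.17, adjusted p = 0.000589). Egfr lost its call without CPA array 1 or 2 or DCB array 1 and under 5 other settings, among them centred arrays and no filter. Other probe sets of Egfr differed by 0.08 to 1.11. Against corn oil 5 of the 18 fell with CPA and 6 with DCB (medians -0.66 and -0.96), beside 2.9% and 4.35% of all genes. Cyp2f2 is also a periportal gene and was called with Uroc1, an enzyme of histidine breakdown (1.00 ± 0.23, adjusted p = 0.00734), among 16 periportal genes. Of 17 pericentral genes, 3 were lower with CPA (Cyp1a2, Lect2 at -1.54 and the amino acid transporter Slc1a4 at -2.35) and Slc1a2, a glutamate transporter, was higher (2.30 ± 0.61, adjusted p = 0.0185). Uroc1 and Slc1a2 lost their calls without DCB array 3. Of 16 clock genes 3 were higher with CPA, led by the repressor Bhlhe40 (10.86, 10.52 and 10.56 against 9.71, 9.22 and 7.40; 1.87 ± 0.42, adjusted p = 0.00672), with Usp2 at 1.26 and Clock at 0.66, and 1 was called without the third CPA array or without DCB array 2 or 3. The hour of death is not given in the sources used here.

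Cell cycle genes did not move together either. Of 24 tested, 4 were lower with CPA and 1 higher (4.06% and 5.24% of all genes), with a median of -0.38. The replication helicase subunits Mcm6 and Mcm5 were lower. Mcm6 read 5.95, 6.26 and 6.08 on the CPA arrays, 9.61, 9 and 7.11 on the DCB arrays and 8.11, 7.42 and 6.73 on the corn oil arrays (-2.48 ± 0.52, adjusted p = 0.0041), and Mcm5 differed by -2.28 ± 0.54, adjusted p = 0.00967. In both, the third DCB array lay closest to the CPA arrays, and without any 1 CPA array 2 of the list were called lower. Rrm2, the small subunit of ribonucleotide reductase, which supplies deoxynucleotides for replication, went the other way and read 9.53, 9.18 and 10.02 on the CPA arrays, 6.65, 6.82 and 5.70 on the DCB arrays and 7.32, 7.11 and 7.09 on the corn oil arrays (3.19 ± 0.55, adjusted p = 0.000753). Afp, alpha-fetoprotein, a fetal liver protein, read 5.74, 5.72 and 6.18 on the CPA arrays, 9.01, 9.30 and 8.6 on the DCB arrays and 7.04, 5.30 and 5.90 on the corn oil arrays. The DCB arrays lay above all others, and the gap was -3.09 ± 0.54, adjusted p = 0.000884. Klf10, an early response factor, read 10.25, 8.16 and 9.43 with CPA, 6.53, 6.21 and 5.68 with DCB and 9.52, 9.03 and 7.94 with corn oil (3.14 ± 0.55, adjusted p = 0.000884); against corn oil it fell with DCB (-2.69, adjusted p = 0.00435) and was not called with CPA.

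Genes of antigen presentation were lower with CPA. In whole liver, fewer cells of a type and less RNA per cell cannot be told apart. Of 6 genes of MHC class II antigen presentation, 4 were called lower with CPA (4.06% of all genes), with a median of -1.55. All 4 had fallen from corn oil with both agents. H2-Aa, a class II chain, read 5.77, 6.51 and 6.39 on the CPA arrays, 9.15, 9.32 and 9.51 on the DCB arrays and 11.64, 11.32 and 10.67 on the corn oil arrays. The 3 groups did not overlap, with corn oil highest and CPA lowest, and the gap was -3.10 ± 0.47, adjusted p = 0.000255. The invariant chain Cd74 followed the same order (5.79, 6.02 and 5.93, then 7.23, 7.43 and 7.39, then 9, 8.89 and 8.08; -1.44 ± 0.32, adjusted p = 0.006). H2-Eb1 (-1.86 ± 0.48, adjusted p = 0.017) and H2-Ab1 (-1.67 ± 0.51, adjusted p = 0.0421) were also lower, and H2-Ab1 lost its call when any 1 of the 6 arrays was left out. Other probe sets of H2-Aa differed by less, from -1.65 to -0.44. Without the first CPA array or the third DCB array 2 of the 4 calls were left. The mean signal of the 6 genes was 5.77 to 6.05 on the CPA arrays, 7.31 to 7.39 on the DCB arrays and 8.08 to 8.86 on corn oil. Of 25 interferon-stimulated genes 4 were lower with CPA and none higher (4.06% and 5.24% of all genes), with a median of -0.67. They were Usp18 (-1.53 ± 0.29, adjusted p = 0.00187), Ifit3 (-1.33), Ifit1 (-1.05) and Ifi27 (-0.93), and 1 was called without the first or the second CPA array and 2 without the third DCB array.

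Markers of the non-parenchymal cells moved with these genes in part. Ptprc, the leukocyte antigen CD45, was lower with CPA (5.78, 6.94 and 6.12 against 7.91, 6.96 and 7.87; -1.30 ± 0.29, adjusted p = 0.00631), as was the B cell gene Cd79b (-0.76 ± 0.19, adjusted p = 0.0123). They made 2 of 9 lymphocyte markers (4.06% of all genes were lower). The mean of the lymphocyte list was 5.22 to 5.30 with CPA, 5.45 to 5.72 with DCB and 5.74 to 5.98 with corn oil, near the array median on every array. The mean of 14 Kupffer cell markers was 7.79 to 8.73 with CPA and 8.16 to 8.56 with DCB, so the groups overlapped, and both lay below corn oil (9.07 to 9.31). Adgre1, a standard macrophage marker, was not called between the agents (-0.47 ± 0.20, adjusted p = 0.143). Marco, a scavenger receptor (7.48, 10.18 and 8.07 against 6.35, 5.93 and 6.45; 2.33 ± 0.55, adjusted p = 0.00882), and Cd163 (1.00 ± 0.32, adjusted p = 0.0482) were higher with CPA. They were the only 2 of the 14 called (5.24% of all genes were higher), and the median of the 14 was -0.36. Another probe set of Marco differed by 0.70. Marco lost its call without the second CPA array and Cd163 when any 1 array was left out. Among 12 sinusoidal endothelial markers, Lyve1, a hyaluronan receptor, was higher with CPA (9.58, 10.79 and 9.45 on the CPA arrays, 6.74, 6.69 and 7.38 on the DCB arrays and 9.38, 8.16 and 6.45 on the corn oil arrays; 3.01 ± 0.63, adjusted p = 0.00415), as was Stab1 (0.66), and Fcgr2b was lower (-0.92). Ptprc lost its call without CPA array 1, Cd79b without CPA array 2, Fcgr2b without CPA array 2 or DCB array 3, and Stab1 without those or CPA array 1. The share of these cell types in the gene differences above was not tested. Hepatocyte markers averaged 13.97 to 14.17 with CPA and 13.81 to 14.01 with DCB, and 1 of 13 was called. No stellate cell marker of 12 was called. Skeletal muscle markers lay between 5.16 and 5.37 on all 9 arrays, near the array median.

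**Figure D4:**
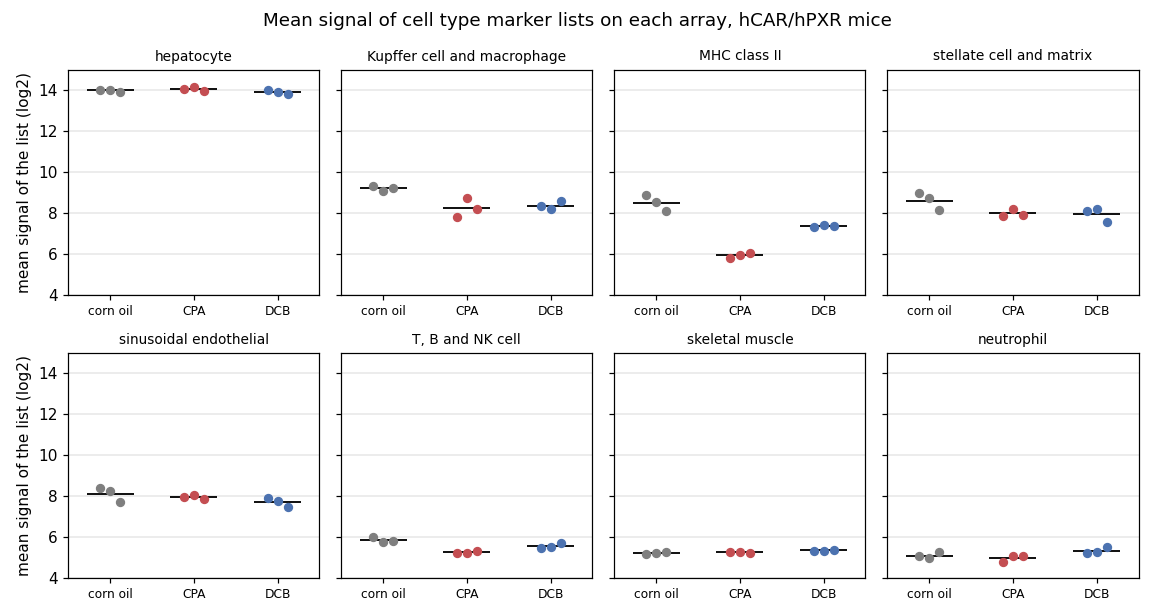
Mean log2 signal of 8 lists of cell type markers on each of the 9 arrays of hCAR/hPXR mice. Points are arrays and bars group means. MHC class II genes are lowest with CPA (5.77 to 6.05) and highest with corn oil (8.08 to 8.86); the Kupffer lists of CPA and DCB overlap below corn oil; hepatocyte markers stay between 13.81 and 14.17.

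The rest of the 15 largest gaps in each direction completes the list of leading genes. Toward CPA they were Serpina4-ps1, a pseudogene of the kallistatin family (11.40, 12.21 and 10.59 on the CPA arrays, 7.48, 8.5 and 5.52 on the DCB arrays and 9, 9.70 and 9.05 on the corn oil arrays; 4.24 ± 1.13, adjusted p = 0.02), Myom3, a sarcomeric protein (7.42, 7.92 and 8.68 against 4.39, 4.71 and 5.02; 3.30 ± 0.70, adjusted p = 0.0043), and Omd, the proteoglycan osteomodulin (8.68, 8.51 and 10.21 against 5.42, 5.35 and 7.42; 3.06 ± 0.52, adjusted p = 0.000617). The transcript 1810053B23Rik (10.20, 10.21 and 10.46 against 7.01, 5.48 and 8.34; 3.35 ± 0.72, adjusted p = 0.00479) and the eosinophil ribonuclease Rnase2a made up the rest. Rnase2a rested on 1 array: it read 7.11, 5.97 and 12.37 with CPA and 4.13, 4.13 and 3.91 with DCB, below the array median on all 3 DCB arrays, and without the third CPA array the difference of 4.42 ± 1.24 was 2.48 and not called. The call was also lost without DCB array 2 or 3. Myom3 was also below the median on the DCB arrays. Serpina4-ps1 shares its sequence family with close relatives, which probe sets may not separate, and lost its call without CPA array 1 or 2 or DCB array 3. Toward DCB the remaining genes were Amn, amnionless, the partner of the cubilin receptor (5.10, 5.44 and 5.75 on the CPA arrays, 8.45, 8.98 and 7.58 on the DCB arrays and 5.42, 5.02 and 5.45 on the corn oil arrays; -2.90 ± 0.28, adjusted p = 1.09e-06), Nol3, an inhibitor of apoptosis (6.46, 6.19 and 6.22 against 8.57, 8.92 and 8.74; -2.45 ± 0.35, adjusted p = 0.000134), and H2-Q2, a class I gene (3.90, 3.75 and 3.83 against 5.64, 6.44 and 6.72; -2.44 ± 0.37, adjusted p = 0.000256). H2-Q2 was below the median on all CPA arrays, and class I genes are near copies of one another.

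The same contrast was read in mice without the human receptors. In wild type mice, with the same labelled durations and no array in common, 257 genes were called (2.01%), 96 higher and 161 lower with CPA. Of the 671 genes higher with CPA in hCAR/hPXR mice, 57 were called higher in wild type mice too (8.49% of the 671 and 59.4% of the 96). Of the 520 lower genes, 101 were called lower in both (19.4% and 62.7%). The sign was shared by 92.8% of the 671 and 90.6% of the 520, against 67.5% of all genes, and none was called in opposite directions. In CARko/PXRko mice, labelled 3 days for both agents, 972 genes were called (7.6%; 419 or 3.27% higher and 553 or 4.32% lower, that is, 43.1% higher, or 76.7% with centred arrays, which moved the median of all genes from -0.03 to 0.14). Without DCB arrays 2 and 3 of that genotype, 111 genes were called. Of the 671, 114 were called higher in CARko/PXRko mice with all arrays and 31 without the 2 arrays, and of the 520, 110 and 34 were called lower. The sign was shared by 71.8% of the 671 and 77.9% of the 520, against 50.4% of all genes, and 6 of each were called in opposite directions. Without the 2 arrays the shares were 67.8% and 79.2%, against 49.4%.

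Some of the leading genes were called in the other genotypes too. Of the 15 largest gaps toward DCB, 10 were called the same way in wild type mice and 11 in CARko/PXRko mice (7 without the 2 arrays); of the 15 toward CPA the numbers were 5 and 8 (6 without). The first value of each pair that follows is from wild type, the second from CARko/PXRko mice, and the value in brackets is the second without the 2 arrays. Cbr3 differed by -4.80 ± 0.38 and -3.86 ± 0.38 (-4.13), and Abcc4 by -3.82 ± 0.59 and -3.46 ± 0.59 (-3.90). The NRF2 targets Srxn1, Ugdh and Slc48a1 were called lower with CPA in every genotype, also without the 2 arrays. Of the 20 NRF2 targets, 7 were lower with CPA in wild type mice and 10 in CARko/PXRko mice (7 without the 2 arrays), and none was higher in either. Sult1e1 differed by 6.30 ± 0.69 and 7.66 ± 0.69 (7.56), Cyp17a1 by 4.55 ± 0.69 and 4.44 ± 0.69 (4.63), and Fkbp5 by 1.65 ± 0.29 and 2.41 ± 0.29 (2.51), all called in each genotype. Serpina6 likewise was lower with CPA throughout (-2.28 ± 0.42 and -3.22 ± 0.42; -3.78). The gap of these genes in hCAR/hPXR mice was not called different from that in either genotype. Of 20 glucocorticoid-responsive genes, 1 was called higher with CPA in wild type mice and none lower (median 0.17), against 7 higher and 1 lower in CARko/PXRko mice (median 1.08; 4 and 0, median 2.07, without the 2 arrays). Proteasome subunits were called lower in 4 of 32 cases in wild type mice (1.26% of all genes) and in 2 of 32 in CARko/PXRko mice (4.32%; 0 without the 2 arrays). Of 18 glucose genes, 1 was called higher in wild type mice (0.75% of all genes), and 3 higher (3.27%) and 1 lower in CARko/PXRko mice (none either way without the 2 arrays). Over all genes, 0.75% were higher and 1.26% lower with CPA in wild type mice, and 3.27% and 4.32% in CARko/PXRko mice. Whether the list counts differ between genotypes was not tested as such.

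**Figure D5:**
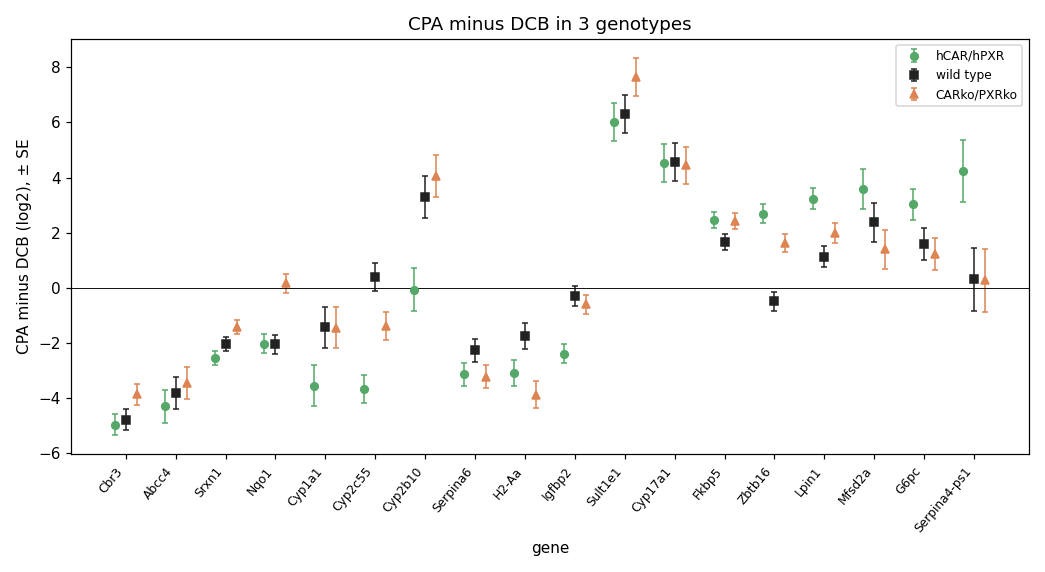
CPA minus DCB difference (log2, ± SE, 3 arrays per group) of 18 genes in hCAR/hPXR, wild type and CARko/PXRko mice, all arrays included. Cbr3, Abcc4, Srxn1, Sult1e1, Cyp17a1 and Fkbp5 lie on the same side of 0 in every genotype, while Cyp2b10 lies at -0.07 in hCAR/hPXR mice and at 3.30 and 4.07 in the other 2.

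The gap of Cyp2b10 was called in the other genotypes and not in hCAR/hPXR mice. Its gap of -0.07 in hCAR/hPXR mice stood beside 3.30 ± 0.77, adjusted p = 0.0215 in wild type mice and beside 4.07 ± 0.77, adjusted p = 0.00301 in CARko/PXRko mice (3.97, adjusted p = 0.0914 without the 2 arrays). With DCB the mean was 12.60 ± 0.29 (SD, n = 3) in hCAR/hPXR mice, 9.69 ± 2.34 in wild type mice, 5.90 ± 0.21 in CARko/PXRko mice, and with CPA 12.54 ± 0.51, 13 ± 0.20 and 9.97 ± 1.45. The differences between these gaps were -3.37 ± 1.09 against wild type (adjusted p = 0.58) and -4.14 ± 1.09 against CARko/PXRko (adjusted p = 0.0635), so neither was called.

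Where the gap itself was tested between genotypes, 8 genes (0.0625%) differed from wild type, 3 upward (0.0234%) and 5 downward (0.0391%). Cyp2c55 was among them: its gap of -3.66 stood against 0.39 ± 0.51 in wild type mice, a difference of -4.05 ± 0.72, adjusted p = 0.0225. In wild type mice it averaged 11.84 ± 0.04 (SD, n = 3) with CPA and 11.45 ± 1.08 with DCB. With CPA in hCAR/hPXR mice it averaged 8.40 ± 0.14. The corn oil level of wild type mice was not compared here. Zbtb16 was higher with CPA in hCAR/hPXR mice alone of these 2 genotypes (-0.49 ± 0.34 in wild type; 3.18 ± 0.48, adjusted p = 0.00526). In CARko/PXRko mice Zbtb16 was called higher with CPA too (1.62 ± 0.34, adjusted p = 0.00562, and 1.99 without the 2 arrays). The Cyp2c55 gap there was -1.40 ± 0.51 (adjusted p = 0.0871), and -2.42 without the 2 arrays. Neither gap in hCAR/hPXR mice was called different from that in CARko/PXRko mice (adjusted p = 0.183 for Zbtb16 and 0.0932 for Cyp2c55). Nebl (-2.99 ± 0.31, adjusted p = 1.34e-05) and Cyp3a44 (-1.99 ± 0.35, adjusted p = 0.0225) differed, with gaps in wild type mice (3.10 and 1.80), neither being called in hCAR/hPXR mice. Nebl lay below the array median on all 3 CPA and all 3 DCB arrays of hCAR/hPXR mice, so it had no level measured above background there. Gin1 completed those 5 (1.71 ± 0.31, adjusted p = 0.0225), and the other 3, Ces2a, Slc8a1 and Ccr6, had differences of -1.55, 1.43 and -0.89. Zbtb16 and Nebl kept this call whichever of the 12 arrays was left out, Cyp3a44 and Gin1 in 4 of the 12 cases, Cyp2c55 and Slc8a1 in 3, and Ces2a and Ccr6 in 1. Against CARko/PXRko mice 83 genes differed (0.649%), but 2 did so without the 2 arrays that stood apart, and genotype and labelled duration cannot be told apart there. The 5 with the smallest p were Parva, Pik3c3, Tshz1, Gng13 and Stradb, and of these Parva was called without the 2 arrays as well (1.61, adjusted p = 0.0192). Another probe set of Parva had a CPA minus DCB difference of -0.06 in hCAR/hPXR mice. Nqo1 also differed (-2.18 ± 0.50, adjusted p = 0.0479; -1.73, adjusted p = 0.216 without the 2 arrays), its gap being 0.15 ± 0.36 in CARko/PXRko mice.

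Of 116 genes followed through the alternatives, 106 were called. Of these, 76 stayed called whichever of the 6 arrays was left out, and 0 changed sign under any alternative. With the 6 arrays fitted alone 72 of the 106 lost their call. A set of 29 was called under every alternative: Abcc4, Afp, Amn, Blvrb, C6, Cbr3, Cd74, Cyp17a1, Cyp1a2, Cyp2c55, Dusp1, Fbxo2, Fkbp5, Fmo2, H2-Aa, H2-Q2, Lpin1, Lyve1, Mfsd2a, Mgst3, Myom3, Nol3, Psat1, Rrm2, Serpina6, Srxn1, Tfrc, Ugdh and Zbtb16. A second probe set above the filter existed for 45 named and called genes, and in 40 of them all such probe sets had the same direction. The 5 exceptions were Stat5b, Cp, Slc1a2, Psmd4 and Parva.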

How the data were processed

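Liver RNA of male mice was hybridised to mouse expression arrays, 3 arrays in each of 10 groups. The deposited table holds log2 expression values made by the authors with RMA, per the submitters' processing notes, with no version or settings stated there. RMA sets all arrays to one distribution, so a shift shared by most genes is removed. Array medians were 5.36 to 5.44. Arrays give no read depth; 3 arrays per group limit the precision.

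Of 45037 probe sets, 34945 had 1 gene, 932 several and 9160 none in the platform annotation. Symbols were checked by gene identifier against RefSeq (GRCm38.p6): 34741 probe sets matched and 0 symbols changed. Each of 18193 genes was read from the single-gene probe set with the highest mean over the 30 arrays. Genes above the array median on at least 3 arrays were tested: 12795 passed and 5398 did not. limma 3.58.1 in R 4.3.3 (lmFit, eBayes) was fitted to group means of all 30 arrays (20 residual and 3.62 prior degrees of freedom), with Benjamini-Hochberg adjustment within each of 7 comparisons and a threshold of 0.05. The fit was tested on simulated data.

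The 49 gene lists (720 of 878 memberships tested) and the genes followed were chosen with earlier results of these data known. Genes named were the 15 largest called differences in each direction without overlap of the arrays, the members of each list with the lowest p (at most 4), fixed reporters and the 5 smallest adjusted p of each gap test; others, such as Gclc and Ces2a, were named after their values were seen. Lists are described by counts and medians, with no set test. Alternatives were the filter, normalization, probe set summary, array weights, the replicate number as a block, the groups fitted, a 2-fold minimum and each array left out. Leaving out the DCB CARko/PXRko arrays 2 and 3 was chosen after seeing the data. The remaining groups entered the fit and are not described.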

Additional observations from a re-analysis of the deposited data

Results flagged for a closer look

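Of the 8 genes whose CPA minus DCB gap in hCAR/hPXR mice differed from that in wild type mice by limma's test of the difference (log2, adjusted over all genes), these are the 5 with the smallest p. The difference was -4.05 for Cyp2c55, -1.99 for Cyp3a44, 3.18 for Zbtb16, -2.99 for Nebl and 1.71 for Gin1. Cyp2c55 stood at similar levels with both agents in wild type mice and higher with DCB than with CPA in hCAR/hPXR mice. Nebl and Cyp3a44 had a gap in wild type mice and none called in hCAR/hPXR mice, where Nebl lay below the array median on all 6 arrays. With each of the 12 arrays left out in turn, Zbtb16 and Nebl were called 12 times, Cyp3a44 and Gin1 4 times and Cyp2c55 3 times, and none changed sign.

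Against CARko/PXRko mice, whose CPA arrays carry another labelled duration, the difference was 1.41 for Parva, 1.00 for Pik3c3, 1.32 for Tshz1, -0.91 for Gng13 and 1.02 for Stradb. Without DCB arrays 2 and 3 of that genotype, Parva was called (1.61) and the adjusted p was 0.158 for Pik3c3, 0.157 for Tshz1, 0.167 for Gng13 and 0.143 for Stradb.

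Among 3700 probe sets above the filter that carry no gene or several genes and entered no comparison above, 130 (3.51%) were called between CPA and DCB in hCAR/hPXR mice, 78 higher and 52 lower with CPA.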

How the results depend on the processing

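Of the 1191 genes called between CPA and DCB in hCAR/hPXR mice, the number was 2716 with array weights, 65 with only the groups compared and 336 with a 2-fold minimum, and 640 to 1598 with 1 array left out. For CPA against corn oil (566) it was 1147 with weights, 288 with the 2-fold minimum and 257 to 562 with 1 array left out. For DCB against corn oil (978) it was 2993, 82 with only the groups compared, 240 and 337 to 1056. In wild type mice (257) it was 1614, 781, 115 and 81 to 229. In CARko/PXRko mice (972) it was 23, 7, 307 and 439 to 1370, and 111 without DCB arrays 2 and 3. The gap against wild type (8) gave 5 at the 75th percentile filter, 4 with centred arrays, 133 with weights, 3 with only the groups compared and 2 to 10 with 1 array left out. The gap against CARko/PXRko (83) gave 21 at the 75th percentile filter, 783 with centred arrays, 30 with probe sets averaged per gene, 0 with array weights in limma (1982 at an unadjusted p under 0.05), 0 with only the groups compared (1550), 2 without DCB arrays 2 and 3, 39 with the 2-fold minimum and 3 to 1290 with 1 array left out. The cause of these changes was not tested, except that fewer samples entered where groups or arrays were left out.

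The replicate numbers are shared by the groups, but same-numbered CPA and DCB arrays deviated together with correlations of 0.20, 0.07 and 0.37, so they were not taken as pairs. With the replicate block 1239 genes were called between CPA and DCB in hCAR/hPXR mice, 549 and 954 against corn oil, 265 in wild type mice, 1031 in CARko/PXRko mice, 8 for the gap against wild type and 145 for that against CARko/PXRko. Of the CPA arrays, 1 and 3 correlated best with the DCB array of their own number, and 2 did not.

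Of 10 named genes not called between CPA and DCB, 6 changed sign under some alternative. With 1 array left out Cyp2b10 ranged from -0.25 to 0.22, Cyp3a44 from -0.38 to 0.13, Nr1i2 from -0.18 to 0.059 and Nr1i3 from -0.062 to 0.22. With array weights Cyp7a1 was 0.16 and Nr1i3 -0.12. Nr1i3 was -0.0034 with centred arrays. With probe sets averaged per gene Nebl was -0.018 and Nr1i2 0.015, and Nr1i2 was 0.027 with quantile normalization applied again.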
